A study of Mus musculus with 12 samples.

Results

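The genotype comparison after sham surgery set 3 ventricles of lincRNA-p21 knockout mice against 3 ventricles of their control littermates, 6 of the 12 libraries of the study. All 6 mice had undergone the sham operation, in which the chest is opened and the aorta is left unconstricted, and polyadenylated RNA was taken from the apex of the left ventricle 8 weeks later. The knockouts lacked lincRNA-p21 in all tissues. The controls are described as heterozygous, so they still carried a copy of the knockout allele and no wild-type group is among the samples. The other 6 libraries came from the same 2 genotypes after TAC (transverse aortic constriction, surgical narrowing of the aorta that raises the pressure load on the heart), and they entered the model to estimate the spread. The sources used here give no strain, sex or age. The Y-chromosome gene Ddx3y had 306 to 940 reads in each of the 12 libraries, so each held RNA of male tissue. Individual animals are not identified, and p-values therefore measure only how far these samples spread, which may be technical in part.

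LincRNA-p21 (gene symbol Trp53cor1) is a long noncoding RNA that the tumour suppressor p53 induces, and it lies next to Cdkn1a, which encodes the cell cycle inhibitor p21. It has been described as acting on its neighbour and, with the RNA-binding protein hnRNP K, on p53 repression targets. In the mouse ventricle, pressure or stretch commonly brings back a fetal gene programme, in which the slow beta myosin heavy chain Myh7, the natriuretic peptides Nppa and Nppb and the skeletal actin Acta1 become abundant again. The sham comparison asks what the loss of the RNA does in a heart without that load.

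Genes were included if their value reached 10 in at least 3 of the 12 libraries, which left 13916 of 56350 gene IDs. Values are normalised read counts, that is reads divided by 1 size factor per library. Differences are knockout minus control on the log2(value + 1) scale, given ± SE, and this scale understates the difference of genes with low counts. The SE comes from the fit of all 12 libraries, so it can be wider or narrower than the spread of a gene's sham values. The sham libraries held between 11157830 and 13238934 reads assigned to genes, and they carried mostly the RNA of ventricular muscle. The ventricular light chain Myl2 stood at 146379 to 190504. The atrial light chain Myl7 did not exceed 25.6 and the atrial calcium pump regulator Sln did not exceed 1.70. Myl2 and Myl7 were chosen after their values were seen. Other genes of the atrial list were expressed, and its 11 tested members summed to 5422 to 9407 per sham library. The 12 ventricular cardiomyocyte markers summed to 876725 to 1016821. Control replicate 3 stood apart from the other 5 sham libraries. Its score on the first principal component, which held 36.3% of the variance, was 53.4 against −19.5 to −5.63 in the others. It held the highest of the 6 values for 27.2% of genes and the lowest for 32.3%, and 12.5% of its reads were mitochondrial, against 14.7% to 18.7% in the others. Its deviation from the sham mean rose with the GC content of the transcript (Spearman rho 0.38, against −0.28 to −0.017 in the others). The genotype difference itself had a rho of −0.25 with GC content, and 0.029 without this library. Control replicate 2 lay apart on the second component (21.8% of the variance) with a score of −40.4. The median SD within a group was 0.285 on the log2 scale in the controls and 0.152 in the knockouts. The lists below are therefore also given without control replicate 3.

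**Figure D1:**
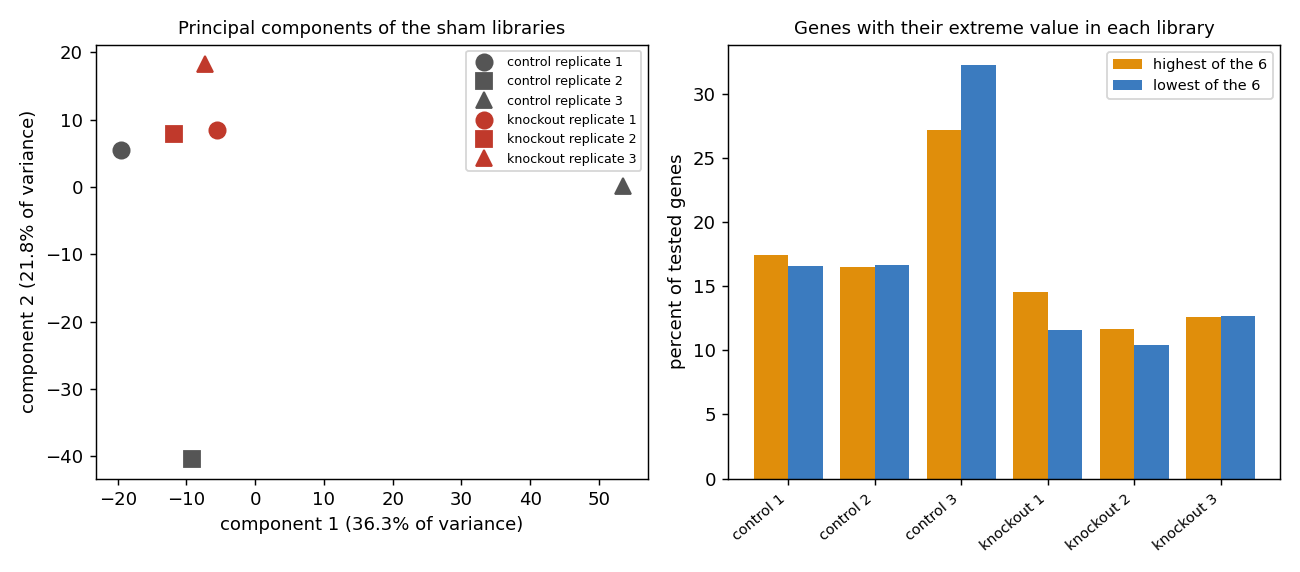
Left, scores of the 6 sham libraries on the first 2 principal components of log2(value + 1), with grey for controls, red for knockouts and circle, square and triangle for replicates 1, 2 and 3; control replicate 3 lies alone at 53.4 on component 1. Right, percent of the 13916 tested genes that have their highest (orange) or lowest (blue) sham value in each library, which is 27.2% and 32.3% in control replicate 3.

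Trp53cor1 (ENSMUSG00000085912.2, a lincRNA at GRCm38 chromosome 17, 29057430 to 29079179) was barely detected in the sham controls, with 2, 0 and 2 reads. None of the knockout libraries had a read. The 4 control reads correspond to 0.112 CPM (reads scaled to library size). The 0 of 37967281 knockout reads allow up to 0.0790 CPM, a floor of 3 counts over the group. The measured control level was 1.41-fold this floor. With only 4 reads the control level is itself uncertain, so this ratio sets no lower limit on the difference. Permuting the genotype over the 6 libraries, an exact two-sided test, gave p = 0.4 (p = 0.4 after adjustment for 2 tests), where 0.1 is the smallest p that 3 against 3 allows. A value at or near 0 in this table does not by itself show a missing RNA, since genes that every cell uses, among them Rps6 and mt-Co2 (chosen after their values were seen), are also listed at or near 0 in all 12 libraries; the part this plays for Trp53cor1 was not tested.

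Cdkn1a (ENSMUSG00000023067.14, chromosome 17, 29090976 to 29100727), which encodes p21, stood at 361, 746 and 658 in the controls and at 300.1, 265 and 269.6 in the knockouts. All 3 knockout values lay below all 3 control values. The difference was −1.01 ± 0.60 (95% interval −2.36 to 0.34), which did not pass the limma test (adjusted p = 0.93), and the exact permutation test gave p = 0.1 (adjusted p = 0.2), the smallest value possible. The control replicates differed among themselves by more than the distance from the lowest control to the knockouts. The SE also draws on the TAC libraries, where the control values of Cdkn1a were 560, 1041 and 135. Of the 14 other tested genes within 500 kb, none reached an unadjusted p of 0.05 with limma, and neither did Cdkn1a. Only 4.34% of all genes reached it, so 14 genes are too few to tell the neighbours from other genes. Mapk14 was the 1 neighbour without overlap, with the knockouts above all controls (0.18 ± 0.13), against 9.62% of all genes. The 13 neighbours with a mean of at least 20 had differences between −0.20 (Fgd2) and 0.26 (Pim1). None of these 13 differed by as much as Cdkn1a. The remaining neighbour, Slc26a8, had a mean of only 4.99. Its difference of −1.10 ± 0.92 was as large as that of Cdkn1a but poorly measured, and its groups overlapped. The p53 gene Trp53, chosen after its values were seen, stood at 233, 222 and 352 in the controls and at 212, 232 and 187 in the knockouts, and the groups overlapped.

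Across the transcriptome, none of the 13916 genes passed limma at an adjusted p of 0.05 (0.0% called). At an unadjusted p of 0.05, 604 genes were found, 4.34% of those tested, of which 337 (2.42%) were higher and 267 (1.92%) lower in the knockouts. On the reads recovered from the values, edgeR's quasi-likelihood test called 0 genes as well, with 264 higher and 351 lower at an unadjusted p of 0.05, and DESeq2 called 1, Myh7 (adjusted p = 1.1e-04). The knockout and control libraries did not overlap for 1339 genes (9.62%), with the knockouts above for 688 (4.94%) and below for 651 (4.68%). The difference was above 0 for 54.6% of genes, and its median was 0.03. The counts at the unadjusted threshold depended on single libraries: without control sham replicate 1 they were 1143 higher and 566 lower, and the higher genes numbered 167 without knockout sham replicate 2 and 196 without knockout sham replicate 3.

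The data limit most differences to a modest size. The 95% interval of the difference stayed within 2-fold in either direction for 78.1% of genes, and for 97.0% of the 8727 genes with a mean of at least 100. For the 5189 genes under that level the share was 46.5%. A difference beyond 2-fold was measured for 152 genes, and 10 of these had a mean of at least 100. In simulated data with the depth of these libraries, each gene had the same spread in all groups and no library stood apart. There the same test called 70.8% of genes that differed 2-fold and 22.7% of those that differed 1.5-fold. It made 9 calls among 13502 unchanged genes. Because control replicate 3 does stand apart, these shares may be too high for the real comparison. Because the tissue is a mixture, more cells of a type and more RNA per cell cannot be told apart for any gene below.

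**Figure D2:**
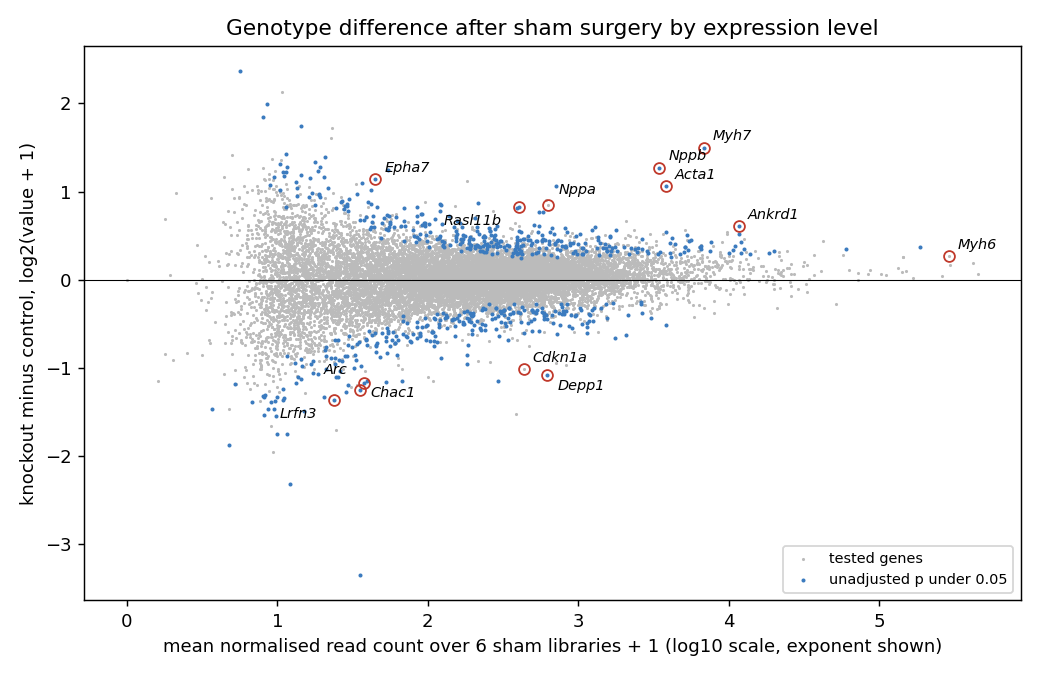
Knockout minus control difference after sham surgery (log2 of value + 1) against the mean of the 6 sham libraries (log10 scale) for each of the 13916 tested genes. Grey points are all genes and blue points the 604 with an unadjusted p under 0.05; labelled circles are genes given in the text, and Myh7, Nppb and Acta1 lie apart from other genes of similar level.

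The gene with the smallest p of all belonged to the fetal programme. It was Myh7 (ENSMUSG00000053093.16, chromosome 14, 54970684 to 54994626), the slow beta myosin heavy chain. Myh7 stood at 2429, 3978 and 4584 in the controls and at 9949, 10469 and 9592 in the knockouts. The lowest knockout was above the highest control by a wide margin, and the knockouts lay close together. The mean was 2.73-fold higher in the knockouts (difference 1.50 ± 0.26, 95% interval 0.94 to 2.06). Its adjusted p was 0.67 with limma, which does not pass. It passed with DESeq2 as given above, and also with limma when control TAC replicate 3, a library outside the comparison, was left out (adjusted p = 0.026). Without control sham replicate 3 the difference was 1.68, with an adjusted p of 0.84. Over the 24 alternatives the difference lay between 1.23 and 1.68 and the adjusted p between 1.1e-04 and 1.00, and without control sham replicate 1 they were 1.23 and 0.13.

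Myh6, the fast alpha myosin heavy chain of the adult mouse ventricle, stood at 275575, 258097 and 254351 in the controls and at 310772, 311032 and 324744 in the knockouts. Its difference was 0.27 ± 0.16 and also showed no overlap between the groups (adjusted p = 0.93). Per length of transcript, Myh7 made up 1.09% ± 0.363 (SD, n = 3) of the sum of both heavy chains in control sham ventricles and 2.42% ± 0.154 in knockout sham ventricles, so the fast form remained the bulk of the message in both. After TAC the same share was 10.7% ± 4.04 in controls and 4.90% ± 2.19 in knockouts. The heavy chains are closely similar in sequence, and reads shared between them may have been assigned to either.

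Nppb, the B-type natriuretic peptide, stood at 1154, 1908 and 3436 in the controls and at 4389, 4893 and 4969 in the knockouts. Its difference was 1.27 ± 0.49 (adjusted p = 0.93), and the controls were spread far more widely than the knockouts, with an SD of 1163 against 315. Nppa, the atrial natriuretic peptide, stood at 218, 553 and 674 against 749, 812 and 777 (0.84 ± 0.42). For both peptides control replicate 1 was the lowest library and no control reached the lowest knockout. Without control replicate 1 the differences were 0.89 for Nppb and 0.35 for Nppa.

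Acta1, the skeletal alpha-actin of the fetal ventricle, stood at 2037, 3909 and 1789 in the controls and at 5095, 4701 and 5397 in the knockouts (1.06 ± 0.37). Ankrd1, a stretch-responsive protein of the sarcomere, stood at 8339, 12075 and 7553 against 13625, 14512 and 13591 (0.61 ± 0.19). For these muscle proteins control replicate 2 was the control closest to the knockouts. The cardiac actin Actc1 overlapped, at 182957, 162299 and 139098 in the controls and 228536, 218983 and 179451 in the knockouts (0.37 ± 0.13). Adjusted p with limma was 0.93 for Acta1, Ankrd1 and Nppa.

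**Figure D3:**
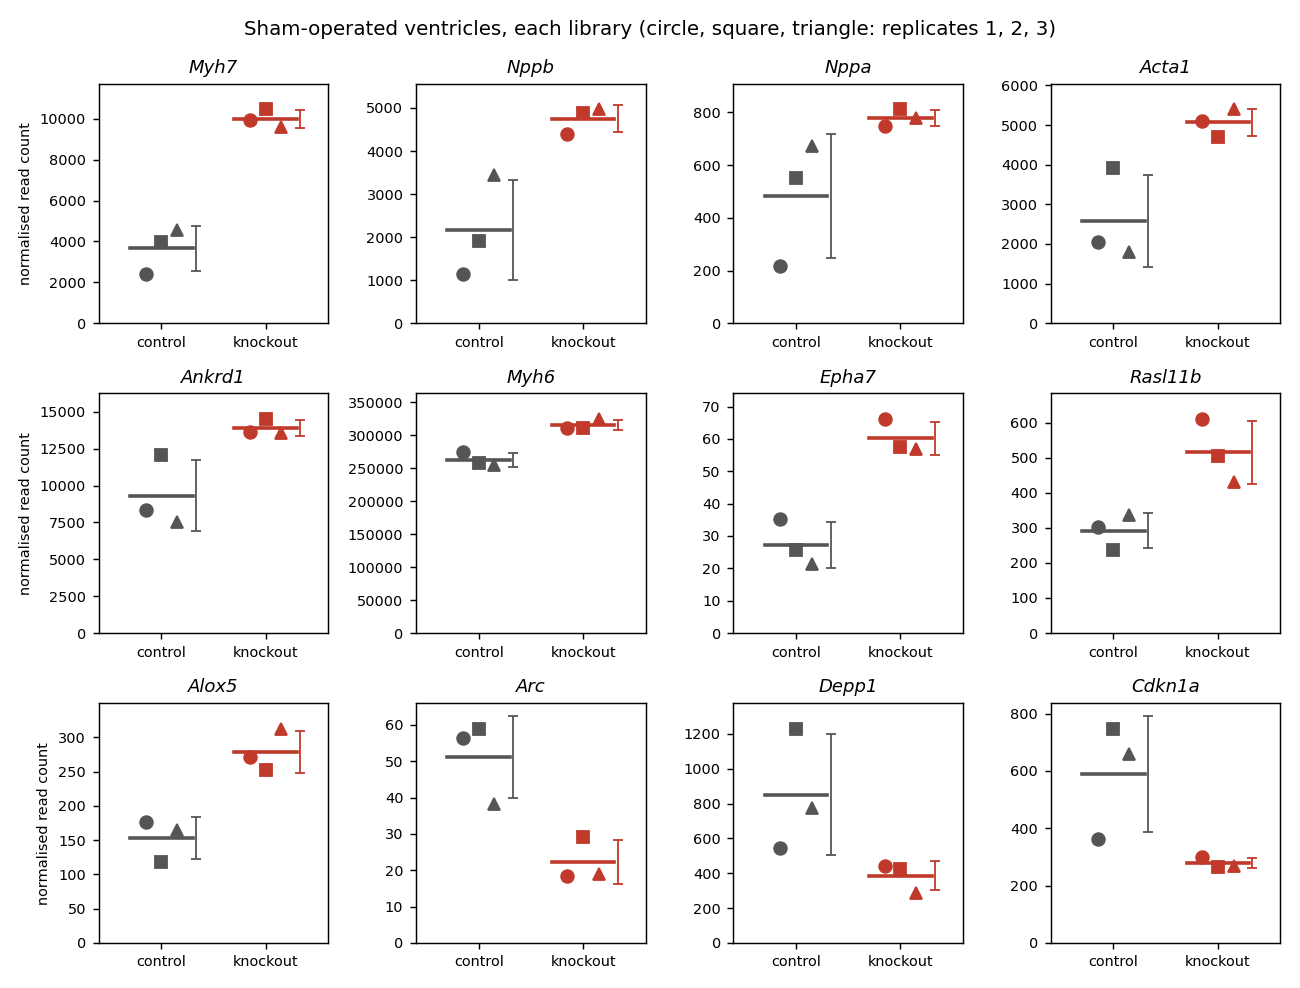
Normalised read count of 12 genes in each sham library, with controls in grey, knockouts in red and circle, square and triangle for replicates 1, 2 and 3; horizontal lines are group means and bars at the side are ± SD (n = 3). The knockout libraries lie above all controls for Myh7, Nppb, Nppa, Acta1, Ankrd1, Myh6, Epha7, Rasl11b and Alox5, and below all controls for Arc, Depp1 and Cdkn1a.

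Of the 28 genes on the hypertrophy and fetal list, 26 were tested. The difference was above 0 for 23 of them, against 54.6% of all genes, with a median of 0.18 against 0.03. At an unadjusted p of 0.05, 6 were higher (2.42% of all genes), Myh7, Ankrd1, Actc1, Acta1 and Nppb among them, and 0 lower. The knockouts lay above all controls for 7 (4.94% of all genes) and below for 0. Without control replicate 3 the median was 0.27, with 5 higher and 0 lower at the unadjusted threshold. Not every member separated the genotypes. The connective tissue growth factor Ccn2 stood at 397, 1457 and 923 in the controls and at 947, 1012 and 942 in the knockouts (0.25 ± 0.54), so its controls lay on both sides of the knockouts.

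The upstream sequences of the 5 genes with the largest differences on this list are shown because many muscle genes of the fetal programme carry an M-CAT element, the site of TEAD transcription factors, near their start. Each stretch is the 250 bases before an annotated start from RefSeq (GRCm38.p6), 5′ to 3′ on the strand of the gene, and capitals mark the letters CATTCC or their reverse complement GGAATG, which the Nppa stretch does not hold.
Myh7, chr14:54994627-54994876, minus strand: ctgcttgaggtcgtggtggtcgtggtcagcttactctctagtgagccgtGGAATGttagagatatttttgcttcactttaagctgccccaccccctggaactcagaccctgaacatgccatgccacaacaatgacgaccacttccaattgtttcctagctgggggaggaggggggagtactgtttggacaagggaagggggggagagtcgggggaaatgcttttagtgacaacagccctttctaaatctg
Nppb, chr4:147985650-147985899, plus strand: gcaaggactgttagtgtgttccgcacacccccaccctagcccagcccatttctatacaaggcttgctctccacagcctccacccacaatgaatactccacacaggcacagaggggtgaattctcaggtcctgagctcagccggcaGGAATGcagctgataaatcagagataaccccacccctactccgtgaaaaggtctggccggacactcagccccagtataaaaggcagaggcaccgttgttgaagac
Acta1, chr8:123894776-123895025, minus strand: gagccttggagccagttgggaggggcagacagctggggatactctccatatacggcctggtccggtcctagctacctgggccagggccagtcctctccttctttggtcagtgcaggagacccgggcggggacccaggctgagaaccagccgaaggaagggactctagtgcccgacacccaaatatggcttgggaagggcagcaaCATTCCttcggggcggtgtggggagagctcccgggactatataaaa
Nppa, chr4:148000472-148000721, plus strand: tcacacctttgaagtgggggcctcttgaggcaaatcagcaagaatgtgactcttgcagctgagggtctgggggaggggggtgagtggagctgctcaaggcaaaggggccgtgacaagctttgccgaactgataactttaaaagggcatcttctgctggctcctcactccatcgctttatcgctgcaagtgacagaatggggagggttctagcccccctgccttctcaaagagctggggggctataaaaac
Ankrd1, chr19:36119845-36120094, minus strand: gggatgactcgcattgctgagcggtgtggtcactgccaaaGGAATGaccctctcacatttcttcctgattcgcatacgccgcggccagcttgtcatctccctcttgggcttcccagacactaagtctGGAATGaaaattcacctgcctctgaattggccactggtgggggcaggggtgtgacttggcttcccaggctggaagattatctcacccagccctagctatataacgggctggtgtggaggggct

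The match began 201 bases before the start shown for Myh7, 105 for Nppb, 46 for Acta1, and 210 and 123 for Ankrd1. A second annotated start of Myh7 had no match in its window, nor had Nppa, and Myh6 had 1. Over all 32851 promoters of the table, 12.6% held the letters within 250 bases on either strand. A match describes the sequence and does not show a bound site. Tead1, which encodes one of the factors that read this element and was chosen after its values were seen, stood at 2178, 1602 and 785 in the controls and at 1489, 1925 and 2086 in the knockouts, and the groups overlapped.

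The genes with the next smallest p were 2 noncoding RNAs, an ephrin receptor and a lipid flippase, all higher in the knockouts. E230013L22Rik (chromosome 8, 11477929 to 11480241), an RNA from a bidirectional promoter, stood at 88.4, 91.1 and 80.5 in the controls and at 172, 152 and 147 in the knockouts (0.85 ± 0.17, adjusted p = 0.68). The 3 controls lay close together, and control replicate 3 did not stand apart for this gene. Epha7, an ephrin receptor tyrosine kinase, stood at 35.2, 25.6 and 21.2 against 66.1, 57.5 and 57.0 (1.14 ± 0.25, adjusted p = 0.93). The lincRNA Gm26795 stood at 33.0, 34.2 and 26.3 against 83.4, 78.5 and 64.2 (1.25 ± 0.27). Atp8a2, which moves phospholipids across membranes, stood at 88.4, 77.9 and 87.3 against 120.0, 139.6 and 154 (0.69 ± 0.15). For none of these genes did the genotypes overlap.

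Among genes with a mean of at least 20, an unadjusted p under 0.05 and no overlap, with predicted genes such as E230013L22Rik and Gm26795 left out, the knockouts were higher for 178 and lower for 162. The 10 largest differences upward among these were Myh7, Nppb, Epha7, Acta1, Cngb3, H3f3a, Cmah, Alox5, B3galt2 and Mboat1. Alox5, the lipoxygenase that starts leukotriene synthesis, stood at 176, 119 and 164 in the controls and at 271, 253 and 312 in the knockouts (0.87 ± 0.24, adjusted p = 0.93). Cngb3, a subunit of the cyclic nucleotide channel of cones, stood at 28.8, 24.7 and 13.6 against 40.7, 53.8 and 36.2. B3galt2, a galactosyltransferase, stood at 116, 56.0 and 88.2 against 138, 173 and 145. The remaining 3, the histone H3.3 gene H3f3a, the sialic acid hydroxylase Cmah and the acyltransferase Mboat1, had values between 12.3 and 24.7 in the controls and between 25.5 and 47.8 in the knockouts. H3f3a has near-identical copies, and its count is uncertain.

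The 10 largest differences downward among these were mostly genes of low counts: Lrfn3, Ms4a6d, Chac1, Mdk, Arc, Rtn4rl2, Otulinl, Negr1, Depp1 and Gabre. Depp1, a target of FoxO factors, had the highest level and stood at 547, 1229 and 776 in the controls and at 439, 425 and 289 in the knockouts (−1.09 ± 0.30, adjusted p = 0.93). Arc, an immediate early gene best known from neurons, stood at 56.5, 58.9 and 38.2 against 18.3, 29.2 and 19.0 (−1.18 ± 0.28). The synaptic adhesion gene Lrfn3 stood at 33.0, 34.2 and 32.2 against 14.2, 11.9 and 10.9 (−1.37 ± 0.47). Its controls, control replicate 3 included, were almost equal. Chac1, a glutathione-degrading enzyme of the integrated stress response, stood at 29.8, 88.3 and 33.1 against 17.3, 16.4 and 20.8 (−1.25 ± 0.41). Control replicate 2 held the highest value for 8 of these 10 genes, Chac1, Depp1 and Arc among them, and control replicate 3 for the other 2. Without control replicate 2 the difference was −0.76 for Chac1, −0.78 for Depp1 and −1.06 for Arc.

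When the 6 sham libraries were fitted alone and control replicate 3 was left out, a setting chosen after the data were seen, 6 genes passed an adjusted p of 0.05 in limma. Those higher in the knockouts were Tnfrsf12a, Fbxl22, Myh7, Nppb and Rasl11b, and Bdh1 was lower. Tnfrsf12a, the receptor of the cytokine TWEAK, stood at 328, 358 and 548 in the controls and at 669, 627 and 766 in the knockouts. Rasl11b, a small GTPase, stood at 302, 237 and 336 against 610.4, 506 and 432. For both genes every knockout lay above every control, with control replicate 3 included. Fbxl22, a sarcomeric F-box protein, stood at 776, 875 and 1367 against 1561, 1541 and 1234, and Bdh1, the enzyme that interconverts the ketone bodies, at 2067, 2362 and 1064 against 1493, 1063 and 1261. For these genes control replicate 3 lay within the knockout range, so the groups overlapped once it was included. Tnfrsf12a, Fbxl22, Rasl11b and Bdh1 were chosen after their values were seen.

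No gene of the adult sarcomere passed an adjusted p. Of 24 tested, 21 had a difference above 0 (54.6% of all genes) and the median was 0.17, or 0.13 without control replicate 3. The unadjusted p was under 0.05 for 4 genes, all higher (2.42% of all genes), and for 2 without control replicate 3. Mybpc3, the cardiac myosin-binding protein C, stood at 49524, 55308 and 54270.0 in the controls and at 63806, 67997 and 69778 in the knockouts (0.34 ± 0.13, adjusted p = 0.93). Myom1, an M-band protein, stood at 19132, 18293 and 15901 against 22031, 21954 and 22499 (0.32 ± 0.12). Both differences were small, and for both genes every knockout lay above every control. Beside them, the ventricular cardiomyocyte markers, which share members with this list, summed to 876725 to 940868 in the controls and to 1001956 to 1016821 in the knockouts. Of these 12 markers 11 were above 0, with a median of 0.14 (0.13 without control replicate 3), and their part in the sarcomere result was not tested. Titin (Ttn) overlapped, at 49416, 32310.1 and 27736 against 42541, 53491 and 48662 (0.44 ± 0.24).

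Among the lists of mitochondrial metabolism, those of the TCA cycle, the mitochondrial regulators and the mitochondrially encoded genes had medians that shrank or turned without control replicate 3, and no member passed an adjusted p. For the TCA cycle, 23 of 24 genes had a difference above 0 (54.6% of all genes) with a median of 0.20, and 5 were higher at an unadjusted p of 0.05 (2.42% of all genes). Control replicate 3 was the lowest of the 6 libraries for 19 of the 24. Without it the median was 0.06 and 0 genes reached that threshold. Citrate synthase (Cs), the entry enzyme of the cycle, shows the pattern: it stood at 19196, 17639.9 and 12906 in the controls and at 20059, 20419 and 20093 in the knockouts. For the PGC-1, PPAR and ERR regulators and mitochondrial dynamics genes, 16 of 18 were above 0 with a median of 0.22, which was 0.04 without that library. For the 7 mitochondrially encoded genes tested, all 7 were above 0 with it and 0 without it, and control replicate 3 was the lowest library for all 7.

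For fatty acid oxidation, control replicate 3 was the lowest library for 23 of 40 genes. Of the 40, 30 had a difference above 0 (54.6% of all genes) with a median of 0.14 (0.07 without control replicate 3). The knockouts lay above all controls for 10 (4.94% of all genes) and below for 1 (4.68%). The unadjusted threshold was passed by 4, all higher (2.42% of all genes), and by 3 higher and 2 lower without the library. Acadvl, the very-long-chain acyl-CoA dehydrogenase, stood at 5373, 5152 and 3527 in the controls and at 6436, 6385 and 5863 in the knockouts (0.43 ± 0.15). Acot2, a mitochondrial thioesterase, stood at 573, 544 and 521 against 877, 628 and 679 (0.40 ± 0.16). For Acot2 the difference without control replicate 3 was 0.37, whereas for Acadvl it was 0.24. The nuclear genes of oxidative phosphorylation had a median of 0.03 over 74 members, equal to that of all genes. Without the library it was 0.12, with 69 of 74 above 0 against 48 of 74 with it. Calcium handling had a median of 0.13 over 28 genes (0.02 without the library), with only Casq2, the calcium store protein calsequestrin, higher at an unadjusted p of 0.05.

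The matrix and interferon lists had medians below 0, with no member past an adjusted p. Of 57 extracellular matrix genes, 11 had a difference above 0, against 54.6% of all genes, and the median was −0.18 (−0.14 without control replicate 3). At an unadjusted p of 0.05, 7 were lower (1.92% of all genes) and 0 higher, and 4 were lower without that library. The knockouts lay below all controls for 11 (4.68% of all genes). Col6a3, a chain of collagen VI, stood at 811, 816 and 657 in the controls and at 532, 585 and 604 in the knockouts (−0.40 ± 0.15, adjusted p = 0.93). Col14a1, a fibril-associated collagen, stood at 188, 146 and 139.9 against 87.5, 116 and 119 (−0.55 ± 0.21). Tgfb1, the profibrotic growth factor, stood at 409, 478 and 563 against 342, 349 and 339 (−0.48 ± 0.19). These 3 groups did not overlap. The main fibrillar collagens differed between themselves: Col1a1 stood at 1595, 1321 and 1855 against 1201, 1287 and 1294 (−0.32 ± 0.15), and Col3a1 at 3247, 2257 and 2701 against 2836, 2585 and 2854 (0.03 ± 0.15). The groups did not overlap for Col1a1. They overlapped for Col3a1 and for the activated fibroblast gene Postn (−0.18 ± 0.23).

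Beside the matrix list, the fibroblast markers summed to 30861 to 38610 in the controls and to 31082 to 32743 in the knockouts. Of these 13 markers 2 had a difference above 0, with a median of −0.15 (−0.09 without control replicate 3), and the library was the highest of the 6 for 6 of them. The part of the fibroblast markers in the matrix result was not tested.

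Of 38 interferon response genes tested, 3 had a difference above 0 (54.6% of all genes) and the median was −0.30 (−0.23 without control replicate 3). Their values summed to 6499 to 9633 in the controls and to 6048 to 7462 in the knockouts, so the sums overlapped. With an unadjusted p under 0.05, 7 were lower (1.92% of all genes) and 0 higher, and 2 were lower without that library. Lgals3bp, a secreted galectin-binding protein, stood at 581, 731 and 738 in the controls and at 461, 478 and 566 in the knockouts (−0.44 ± 0.15, adjusted p = 0.93). Oasl1, of the oligoadenylate synthetase family, stood at 23.4, 38.9 and 39.8 against 12.2, 14.6 and 27.1 (−0.93 ± 0.36). For Oasl1 control replicate 1 lay among the knockouts. Control replicate 3 held the highest value of 18 of the 38 genes. The inflammation list had 5 of 26 genes above 0 and a median of −0.23 (−0.18 without that library). Its largest difference was in the chemokine Cxcl10, at 9.59, 24.7 and 9.33 against 2.03, 2.74 and 5.43 (−1.76 ± 0.72).

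Markers of the cell types that could carry these signals are given beside them. The macrophage and monocyte markers summed to 5277 to 7048 in the controls and 4881 to 5491 in the knockouts, with 5 of 18 above 0 and a median of −0.13 (−0.21 without control replicate 3). The endothelial markers summed to 59255 to 69098 against 54553 to 58021. Their median was −0.28 and 2 of 23 were above 0, but control replicate 3 held the highest value for 19 of the 23, and without it the median was −0.10. Flt1, a receptor of vascular endothelial growth factor, shows it with 2263, 2285 and 3013 in the controls and 1924, 2165 and 2056 in the knockouts. The part of these cell types in the interferon and inflammation results was not tested. The mesothelial markers, which mark the surface of the heart, had a median of −0.24 over 15 genes (−0.17 without control replicate 3), with none at an unadjusted p of 0.05 in the full comparison.

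The p53 targets are the list closest to the known role of the RNA. Of 38 tested, 21 were above 0 (54.6% of all genes) and the median was 0.01. Without control replicate 3, 13 of 38 were above 0, against 7074 of 13814 over all genes, with a median of −0.08. In that setting 1 was higher and 3 lower at the unadjusted threshold, against 241 higher and 271 lower of the 13814. With that library included, 1 was higher (2.42% of all genes), the fructose bisphosphatase homologue Tigar (0.39 ± 0.18), and 1 lower (1.92% of all genes), the cell cycle inhibitor Cdkn1b (−0.28 ± 0.13). The knockouts lay above all controls for 2 (4.94% of all genes) and below for 4 (4.68% of all genes), Cdkn1a among them. Mdm2, the ubiquitin ligase that p53 induces, was chosen after its values were seen and stood at 744, 759 and 601 against 733, 706 and 666 (0.01 ± 0.13, 95% interval −0.26 to 0.27). The reported protein partners and targets of lincRNA-p21 had 5 of 9 genes above 0 and a median of 0.01, and 3 of 9 and a median of −0.10 without control replicate 3. Hnrnpk, chosen after its values were seen, stood at 1082, 1184 and 879 against 1092, 1129 and 1065, and the groups overlapped.

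The NRF2 and hypoxia list held 4 lower genes (1.92% of all genes) and 1 higher (2.42%) at an unadjusted p of 0.05 among 21 tested, and 5 lower and 0 higher without control replicate 3. Its median was −0.10, or −0.19 without that library. Hmox1, the haem oxygenase, stood at 118, 155 and 118 in the controls and at 90.5, 84.8 and 79.6 in the knockouts (−0.60 ± 0.23, adjusted p = 0.93). P4ha1, a collagen prolyl hydroxylase, stood at 664, 754 and 595 against 465, 514 and 555 (−0.39 ± 0.16). The higher gene was Hif1a, the hypoxia-inducible factor, at 543, 450.0 and 350.2 against 509.7, 581 and 723 (0.44 ± 0.17). Hmox1 and P4ha1 showed no overlap, and Hif1a did. Cytosolic ribosomal protein genes had a median of −0.02 over 44 members (0.10 without control replicate 3) and none at an unadjusted p of 0.05, and the circadian list had a median of 0.00 over 19 (−0.15 without it), also with none.

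**Figure D4:**
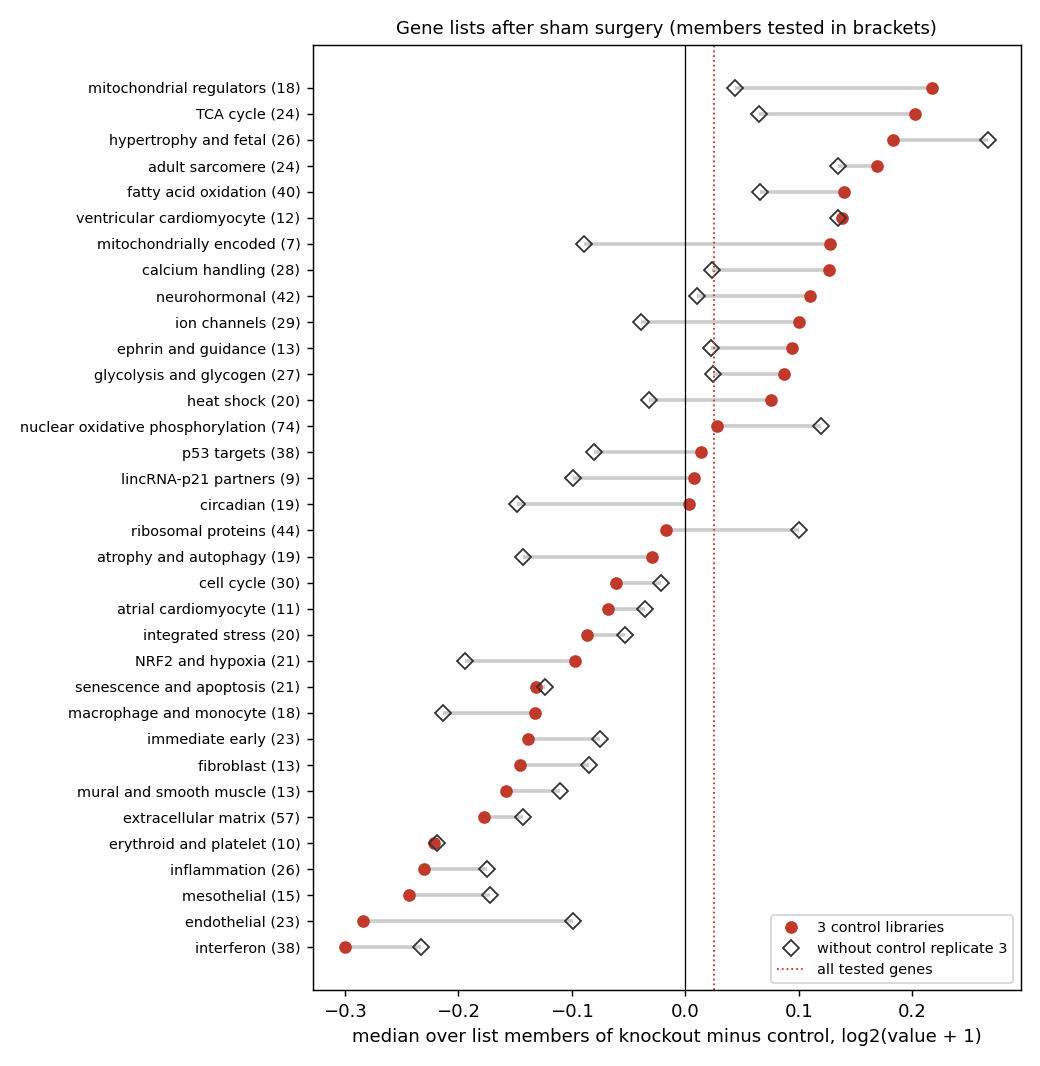
Median knockout minus control difference after sham surgery over the tested members of each gene list (number in brackets), with all 3 controls (red circles) and without control replicate 3 (open diamonds); the dotted line is the median of all genes, 0.03. The hypertrophy and fetal list stays to the right in both, at 0.18 and 0.27, while the mitochondrially encoded list moves from 0.13 to −0.09.

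The calcium pump Atp2a2 stood at 170108, 154411 and 79016 in the controls and at 154612, 156699.7 and 146561 in the knockouts (0.26 ± 0.20). Its low control was replicate 3, and without it the difference was −0.087. Phospholamban (Pln, 0.12 ± 0.14), the carnitine transferase Cpt1b (0.07 ± 0.16), the coactivator Ppargc1a (0.16 ± 0.26) and the kinase Pdk4 (−0.35 ± 0.27) overlapped. So did the stress and matrix genes Spp1 (0.93 ± 0.58), Timp1 (−0.46 ± 0.41) and Gdf15 (−0.67 ± 0.68). Rcan1, the calcineurin inhibitor that calcineurin itself induces, showed no overlap, at 1246, 1272 and 1117 against 1411, 1566 and 1561, with a difference of 0.32 ± 0.32.

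The genotype difference after TAC was measured in other libraries and is set beside these values. There limma called 1145 genes (8.23%) at an adjusted p of 0.05. Over all 13916 genes the sham and TAC differences had the same sign for 50.4%, and for 50.3% of the 604 genes at an unadjusted p of 0.05 after sham, and their correlation across genes was r = 0.033. Among the 414 genes that also showed no overlap after sham, 56.0% had the same sign, and r was 0.18. Of these 414, 78 reached an unadjusted limma p of 0.05 after TAC in the same direction and 33 in the opposite one. Over all 13916 genes those counts were 1781 and 1696. Genes are not independent replicates, and both differences come from 1 fit. Of the 10 highest and 10 lowest genes after sham, 12 of 20 had the same sign after TAC. Arc had nearly the same difference after both operations, −1.18 ± 0.28 after sham and −1.20 ± 0.28 after TAC, where it passed (adjusted p = 0.019). Alox5 and Cngb3 were also alike, at 0.87 and 0.98 after sham and 0.73 and 0.94 after TAC, without passing there.

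Several fetal genes had differences of the opposite sign after TAC. Myh7 stood at 43077, 56882 and 26011 in control TAC ventricles and at 14850.0, 18721 and 13567 in knockout TAC ventricles, a difference of −1.36 ± 0.26 (adjusted p = 0.0090). The difference between the genotype differences was −2.86 ± 0.37 and passed (adjusted p = 0.0043). Ankrd1 had −0.96 ± 0.19 after TAC against 0.61 ± 0.19 after sham, and its difference of differences of −1.57 ± 0.27 passed as well (adjusted p = 0.020). For Acta1 (−2.28 ± 0.52, adjusted p = 0.087), Nppa (−1.90 ± 0.59, adjusted p = 0.16) and Nppb (−1.32 ± 0.70, adjusted p = 0.38) it did not. Over all genes 43 passed that test (0.309%). The sham difference is part of that test, and Myh7 was named for having the smallest sham p. Nppb itself differed by only −0.05 between the genotypes after TAC, against 1.27 after sham.

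**Figure D5:**
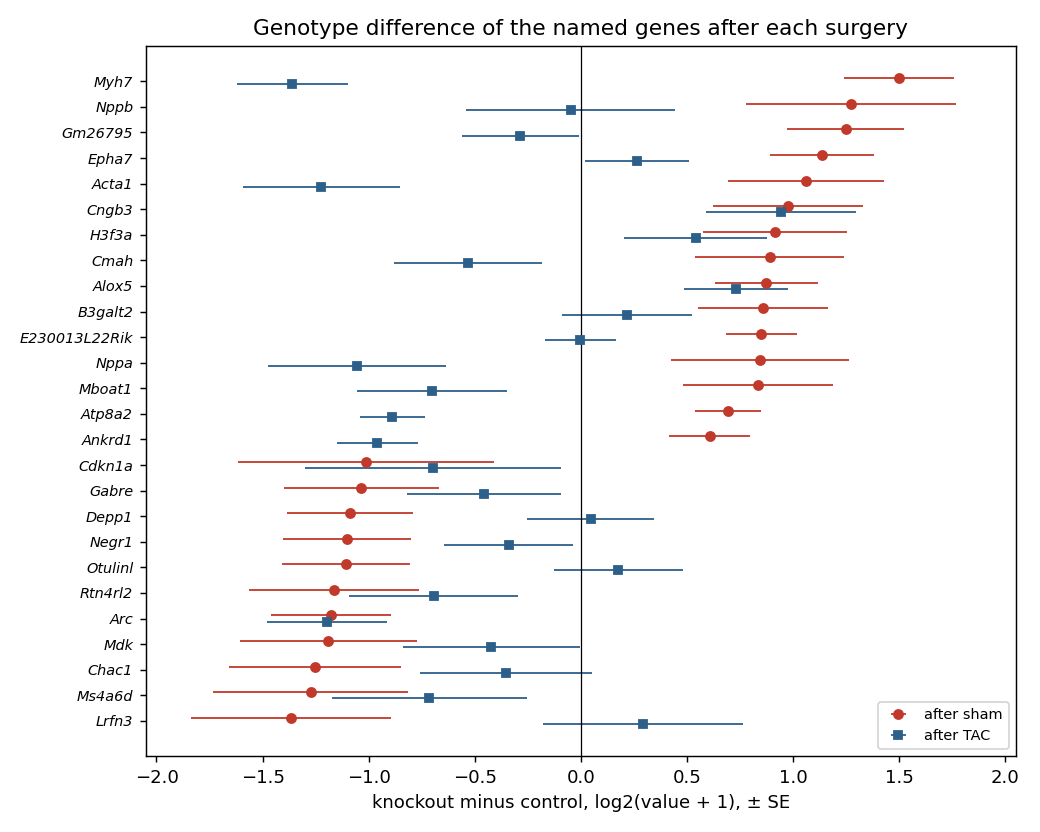
Knockout minus control difference (log2 of value + 1, ± SE) after sham surgery (red circles) and after TAC (blue squares) for the genes with the largest differences or smallest p after sham and for Nppa, Ankrd1 and Cdkn1a. Myh7 lies at 1.50 after sham and −1.36 after TAC, and Arc near −1.2 after both.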

How the data were processed

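Polyadenylated RNA of 12 libraries was measured, 3 for each of 4 groups, and the comparison used the 6 sham libraries. TRIzol extraction and a stranded mRNA library kit were used, per the labels' protocols. The submitters' processing notes name STAR, SAMtools, featureCounts and GRCm38.p6; the sources used here give no versions, annotation or strand setting, so overlapping, antisense and near-identical genes are uncertain.

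The deposited values are signal values, reads per gene that the authors divided by 1 size factor per library. The values themselves show it: within 0.01, 100% were whole multiples of 1 step, which recovers the reads. Of 56350 gene IDs, 55480 matched GENCODE M21. The 12 libraries held 10323605 to 13238934 reads; intervals and floors on reads cover counting error only.

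limma-trend (limma 3.58.1, R 4.3.3, robust) was fitted to log2(value + 1) of the 13916 tested genes, with 4 group means and 8 residual degrees of freedom, and p-values were adjusted by Benjamini-Hochberg over all tested genes. Alternatives were edgeR 4.0.16, DESeq2 1.42.0 and voom with quality weights on the recovered reads, TMM scaling, pseudocounts of 0.5 and 5, other filters, the replicate number as a block, the sham libraries alone, removal of the length and GC trend by loess, and leaving out each library. The fit was tested on simulated data. Other work used Python 3.11.15, pandas 2.3.3, scipy 1.17.1 and matplotlib 3.10.9. Gene lists share some members.

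The comparison, gene lists and rules were chosen with earlier results of these data known. Genes named were Trp53cor1 and Cdkn1a, the 5 with the smallest p, the 10 highest and 10 lowest differences among genes with a sham mean of at least 20, an unadjusted p under 0.05 and no overlap (predicted genes left out), the members with the smallest p of each list described (at most 4), and all of a short set of heart genes; others are marked in the text.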

Additional observations from a re-analysis of the deposited data

Results flagged for a closer look

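For 5 of the 182 genes that the naming rule covers, the genotype difference after TAC differed from that after sham surgery by a test of the difference itself (limma interaction contrast, Benjamini-Hochberg over 13916 genes). Over all 13916 genes 43 passed (0.309%). Many of the 182 were chosen by their sham difference or its p, and the sham difference is part of this contrast. The choice may therefore raise the share among them, and the 2 shares cannot be compared. The differences of differences, TAC minus sham on the log2(value + 1) scale, were −2.86 for Myh7, −2.16 for titin (Ttn), −1.91 for Ppargc1b, a coactivator of mitochondrial genes, −1.58 for the flippase Atp8a2 and −1.57 for Ankrd1. In each case the knockouts were the higher group after sham and the lower group after TAC. The adjusted p was 0.0043 for Myh7, Atp8a2 and Ppargc1b, 0.014 for Ttn and 0.020 for Ankrd1. After sham surgery none of the 5 passed on its own. Ppargc1b stood at 268, 176 and 169 in the sham controls and at 273, 380.4 and 261 in the sham knockouts, so the groups overlapped, as they did for Ttn.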

How the results depend on the processing

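The number of genes past an adjusted p of 0.05 was 0 under all settings except 3: DESeq2 called 1, limma without control TAC replicate 3 called 1, and the sham libraries alone without control sham replicate 3, chosen after the data were seen, gave 6. Leaving out 1 library gave 0 to 1 calls, 167 to 1143 higher and 194 to 566 lower genes at an unadjusted p of 0.05, 1081 to 2025 genes with the knockouts above all controls and 1047 to 1782 with them below; fewer libraries overlap less by construction. Without a filter there were 583 higher and 530 lower genes at that p and 986 below without overlap, more genes being tested. voom with quality weights gave 529 lower, and the sham libraries alone without control sham replicate 3 gave 430; the cause was not tested. The same replicate number did not pair the sham libraries (correlations of −0.067, 0.056 and 0.042), and with the replicate block there were 0 calls, 361 higher and 291 lower genes.

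Of the named genes whose genotype differences differed between TAC and sham, 5 in number, there were 3 with the length and GC trend removed, 20 with DESeq2 and 35 with voom; leaving out 1 library gave 3 to 26, the highest without control sham replicate 1.

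Of 67 genes with a printed difference, 60 kept its sign under every setting. The others were small differences. Without control sham replicate 3, in the full fit and with the sham libraries alone, the sign turned for Atp2a2 (−0.087), Pln (−0.045), Ppargc1a (−0.029) and Mdm2 (−0.099). Mdm2 also turned with the length and GC trend removed (−0.050), with edgeR (−0.0039), with voom (−0.075) and without knockout sham replicate 1 (−0.024). Ccn2 turned without control sham replicate 1 (−0.26), Col3a1 without control sham replicate 2 (−0.10), and Cpt1b without that library (−0.030) or without knockout sham replicate 1 (−0.032). The highest differences with 1 library left out were 0.47 for Atp2a2, 0.67 for Ccn2, 0.16 for Col3a1, 0.14 for Cpt1b, 0.069 for Mdm2, 0.22 for Pln and 0.34 for Ppargc1a. The cause was not tested. Precision is lowest for the 5189 genes with a mean under 100, of which 46.5% had a 95% interval within 2-fold.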
